A study of Homo sapiens with 2 samples.

Results

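The CpG-dense stretches described here were 618 bins of 1 kb, of 237126 such bins on the autosomes, that carried almost no methylation in the DNMT3A mutant AML line OCI-AML3 and were largely methylated in the DNMT3A wild-type AML line AML5. Whole-genome bisulfite sequencing was available for 1 library of each line (no replicates). In this assay unmethylated cytosines are converted and read as thymine, so the share of calls that still read cytosine at a CpG is its methylation level. OCI-AML3 is an established acute myeloid leukemia line with a heterozygous missense mutation of DNMT3A, and AML5, also recorded under the name OCI-AML5, is an established acute myeloid leukemia line without one. Both were grown untreated in serum-supplemented medium. Each line is a single culture from a single origin, so the DNMT3A genotype and every other difference between the lines cannot be told apart.

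The bins were chosen by their measured levels. A bin was called dense where at least 20 of its CpGs were read more than 5 times in both lines, and the level assigned to it was the mean over those CpGs. It was kept below 15% in OCI-AML3 together with above 70% in AML5, which held for 0.261% of dense bins. The same rule with the lines exchanged held for 79 bins (0.0333%). A further 16029 dense bins were below 15% in both lines, and 153866 were above 70% in both. Because the levels chose the bins, the levels and their differences are given as a description with no test, and with 1 library per line no comparison against the spread between cultures was possible.

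As background, CpG methylation is written by DNMT3A and DNMT3B on unmethylated DNA, copied to the new strand by DNMT1 after replication and removed through oxidation by TET enzymes. Most of the genome is methylated, whereas CpG islands, short stretches rich in CpGs, are usually unmethylated where they hold the start of an active or poised gene. In leukemia cells many islands gain methylation.

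Sequence of 3 loci is shown as examples of large differences, not of a typical bin. At each locus the qualifying bin with the largest difference was used. Each stretch is the 200-base window of its bin with the most CpGs read in both lines among windows free of annotated UTRs, from the plus strand of GRCh37/hg19, with every CpG in capitals.
HOXA3, chr7:27179154-27179353: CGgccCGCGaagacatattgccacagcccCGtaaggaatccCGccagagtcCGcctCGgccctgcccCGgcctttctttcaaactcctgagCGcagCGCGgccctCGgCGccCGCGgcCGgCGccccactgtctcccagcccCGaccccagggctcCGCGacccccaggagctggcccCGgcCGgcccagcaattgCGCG
IRF8, chr16:85936026-85936225: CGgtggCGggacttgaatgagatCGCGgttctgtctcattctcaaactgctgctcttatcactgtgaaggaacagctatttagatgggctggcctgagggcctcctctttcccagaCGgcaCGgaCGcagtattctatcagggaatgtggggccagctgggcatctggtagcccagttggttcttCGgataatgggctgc
MIRLET7BHG, chr22:46474389-46474588: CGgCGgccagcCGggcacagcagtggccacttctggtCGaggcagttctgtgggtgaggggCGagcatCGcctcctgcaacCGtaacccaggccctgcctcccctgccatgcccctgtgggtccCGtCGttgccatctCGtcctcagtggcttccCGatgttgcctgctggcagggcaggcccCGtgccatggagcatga

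In the HOXA3 window 4 of 1772 calls over 24 CpGs were methylated in OCI-AML3 (0.226%, Wilson 95% interval 0.0878 to 0.579) and 1082 of 1124 in AML5 (96.3%, 94.99 to 97.2). The IRF8 window had 0 of 352 calls methylated in OCI-AML3, which allows a share of up to 0.852%, against 380 of 399 in AML5 (95.2%). The MIRLET7BHG window was at 0.154% and 94.5%. In these 3 windows no CpG of OCI-AML3 exceeded 1.89% and no CpG of AML5 fell below 87.3%. An AZU1 window chosen the same way, with 12 CpGs and not printed, was less even: its shares were 2.00% and 90.1%, but 1 CpG of OCI-AML3 reached 6.12% and 1 CpG of AML5 was as low as 44.1%. These intervals cover counting error only, and calls from 1 read are not independent, so they can be too narrow.

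Over all 618 bins the level had a median of 6.08% in OCI-AML3, with quartiles of 2.06% and 11.2%. In AML5 the median was 85.9%, with quartiles of 77.7% and 92.4%. Over all dense bins the medians were 82.2% and 88.4%. The difference between the lines ran from 56.8 to 95.7 percentage points with a median of 78.9, and exceeded 90 points in 75 bins. The bins held 23466 CpGs, of which 12087 (51.5%) had no methylated call at all in OCI-AML3 and 14074 (59.98%) were above 90% in AML5. In 223 bins (36.1%) the most methylated CpG of OCI-AML3 was below the least methylated CpG of AML5. In the others the ranges of single CpGs overlapped. The SD between the CpGs of a bin had a median of 11.5 points for OCI-AML3 and 15.8 points for AML5. In OCI-AML3, 86 bins were below 1%, 272 were below 5%, and 4 had no methylated call.

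Near the limits of the rule the choice was arbitrary. Bins are named here by the nearest protein-coding gene, which can be far away. The 3 bins just inside the 15% limit were those of BOLA2B (14.99% in OCI-AML3), SMAD3 (14.96%) and MN1 (14.94%). Those just outside it were of CENPB (15.01%), CHDH (15.03%) and PARP11 (15.06%). On the AML5 side TENT4A (70.03%), SKIDA1 (70.12%) and ADGRE5 (70.14%) were just inside, and CCDC88B (69.96%), GRXCR1 (69.94%) and TGFB2 (69.91%) just outside. The MN1, PARP11 and GRXCR1 bins lay 177871, 165387 and 132271 bp from the start of the gene named.

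At a few kb from the bins the median level was high in both lines, but the windows next to them were often low in OCI-AML3. In AML5 the median level of 1 kb windows was between 89.5% and 92.2% from 5 kb before the bin to 5 kb after it, apart from 85.9% in the bin itself. In OCI-AML3 it was 84.0% at 5 kb on either side, 31.0% and 37.4% in the windows next to the bin, and 6.08% inside it. The lower quartiles of OCI-AML3 in those adjoining windows were 2.14% and 3.34%. The bins unmethylated only in AML5 had the mirrored shape, with a dip to 7.36% in AML5. Over the 50 kb around the bins the lines differed by a median of 7.52 points (68.6% in OCI-AML3 and 76.7% in AML5), near the 6.37 points around all dense bins.

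The unmethylated stretch of OCI-AML3 around a bin spanned a median of 2 consecutive 1 kb windows below 15%. It was 1 window for 244 bins (39.5%), at least 5 for 110, and 36 at the longest. A window below 15% in both lines adjoined 100 bins (16.2%, Wilson 95% interval 13.5 to 19.3), against 8.82% of all dense bins, 8.86% of the bins unmethylated only in AML5 and 61.5% of the bins unmethylated in both lines. Such a neighbour was present for 82 of the 283 bins near a transcription start (29.0%) and for 18 of the other 335 (5.37%). The Wilson interval treats bins as independent, although 158 of the 618 were in runs of adjoining bins, so it can be too narrow.

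Position along genes was not used by the rule. A protein-coding transcription start site (TSS) lay inside or within 1 kb of 283 bins (45.8%, 41.9 to 49.7), compared with 24.4% of all dense bins, 63.3% of those unmethylated only in AML5 and 88.8% of those unmethylated in both lines. Here too the interval treats adjoining bins as independent. A protein-coding TSS was the start of any annotated transcript of a protein-coding gene, also of transcripts that do not themselves encode protein. The most upstream TSS of a gene lay inside or within 1 kb of 141 of the 283, and near the others only alternative starts did. The centre lay downstream of the TSS in 148 bins and upstream in 135. By annotation 56 bins held the most upstream TSS of a gene, 93 another TSS, 73 a coding exon and 29 another exon. Introns held 168, genes without protein product 98, and 101 were intergenic. No protein-coding TSS lay within 50 kb of 81 bins (13.1%), against 18.9% of all dense bins. The 81 included the 21 bins of MIRLET7BHG, a gene without protein product.

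**Figure D1:**
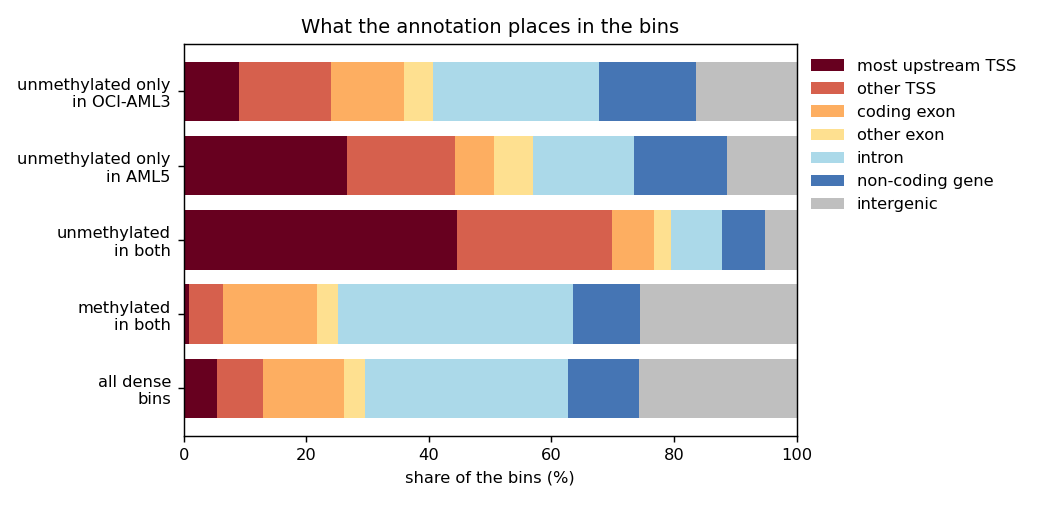
Share of the bins (%) of each methylation class by what the GRCh37 annotation places in them, each bin counted once in the order of the legend. Most upstream starts took up 9.06% of the 618 bins unmethylated only in OCI-AML3, 44.6% of the bins unmethylated in both lines and 0.833% of the bins methylated in both.

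Most of the 12969 dense bins at a most upstream TSS were not above 70% in AML5 and could not qualify. Of the 1834 that were, 56 (3.05%) were below 15% in OCI-AML3. The corresponding share was 0.929% of 10013 bins at other TSSs, 0.463% of 21163 in genes without protein product, 0.272% of 26833 in coding exons, 0.246% of 68402 in introns and 0.203% of 49620 between genes, and 0.336% overall. By CpG number it went from 0.205% of bins with 20 to 29 CpGs to 2.13% of bins with 60 or more. With the lines exchanged, the share was 1.32% at most upstream starts, 0.157% at other TSSs and 0.0223% between genes.

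In base composition the 618 bins lay between the methylated and the unmethylated part of the genome. They held a median of 31 CpGs, against 26 in all dense bins and 65 in bins unmethylated in both lines. The median ratio of observed to expected CpGs was 0.484, against 0.422 and 0.751, and the median GC share was 54.7%, against 52.4% and 60.8%. Only 116 bins (18.8%) had more than 50% GC together with a ratio above 0.6, the letters usually taken to mark a CpG island, compared with 11.5% of all dense bins and 73.6% of those unmethylated in both lines. The bins near a TSS were denser (median 36 CpGs) than the others (28).

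Short sequence motifs were counted on both strands as a description of the letters, each on its own, and none of them contains another. The GC box GGGCGG, bound by SP-family factors, was present in 66.3% of the bins, 51.8% of all dense bins and 87.5% of bins unmethylated in both lines. The RUNX core TGTGGTT was found in 16.8% of the bins, 12.7% of all dense bins and 10.2% of bins unmethylated in both lines. AGAGGAAG, a purine box of the kind bound by the myeloid factor PU.1, was found in 13.1%, 9.61% and 12.1%. Away from TSSs TGTGGTT was present in 17.3% of the bins and 13.1% of all dense bins. The MEIS core TGACAG was present in 42.7% of the bins, 48.9% of all dense bins and 37.4% of bins unmethylated in both lines. AP-1 letters (TGACTCA) were at 12.5% and 12.4%, and CCAAT at 57.8% and 60.2%. The ETS motif CCGGAAGT, found in 7.54% of bins unmethylated in both lines, was found in 1.29% of the 618 and 1.65% of all dense bins. GGGATTACA, a stretch of the Alu repeat consensus searched for after the other values were seen, was present in 25.2% of the bins, 38.8% of all dense bins and 6.51% of bins unmethylated in both lines. The shares of the E-box CACGTG and of the cyclic AMP response element TGACGTCA differed from those over all dense bins by less than 3 percentage points. So did those of the NRF1 core GCGCATGC, the GATA letters AGATAA and the CTCF core CCACTAG.

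Read depth entered the rule only as a minimum. OCI-AML3 was read at a median depth of 45.0 calls per CpG over the 618 bins and AML5 at 36.9, compared with 42.3 and 37.3 over all dense bins. The ratio of the 2 depths had a median of 1.2, against 1.13 over all dense bins and 1.18 in the bins unmethylated only in AML5. Its median was 1.40 in bins unmethylated in both lines and 1.10 in bins methylated in both. The ratio exceeded 2 in 40 of the 618 bins (6.47%), against 2.32% of all dense bins. That share was 6.33% of the bins unmethylated only in AML5 and 4.54% of those unmethylated in both lines. The highest ratios were at chr9:21965001-21966000 near CDKN2A, where OCI-AML3 had 74.7 calls per CpG and AML5 8.43, and at the CDKN2B start, with 68.7 and 11.1. The part of copy number in these depths, and of depth in the levels, was not tested. Restricting to bins with depth between 0.5 and 2 times the median of each line kept 568 of the 618.

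The share of dense bins that qualified differed between chromosomes. It was highest on chromosome 17 (75 of 16047 bins, 0.467%) and chromosome 22 (41 of 8978, 0.457%). The lowest shares were on chromosome 14 (5 bins, 0.0695%) and chromosome 21 (3 bins, 0.0724%). Chromosome 17 had none of the 79 bins unmethylated only in AML5, and chromosome 19 had 63 of the 618 and 10 of the 79. On chromosome 22, 21 of the 41 bins belonged to 1 gene, MIRLET7BHG.

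The bins fell into 522 runs of adjoining bins, 460 of them of 1 bin, 47 of 2 and 15 of 3 or more, and 158 bins were in a run of at least 2. The most extended locus was MIRLET7BHG on chromosome 22 (chr22:46449749-46509808, plus strand), the host transcript of the let-7a-3 and let-7b microRNAs, a family that represses growth-promoting genes. Of its 49 dense bins 21 qualified, all between positions 46451001 and 46485000. They lay between 0.0328% and 1.31% in OCI-AML3 and between 70.9% and 95.8% in AML5. Runs of 8, 5 and 4 bins started at 46470001, 46480001 and 46457001. Over the whole gene 2019 CpGs averaged 25.5% in OCI-AML3 and 71.6% in AML5, and 36 of its 61 windows of 1 kb were below 15% in OCI-AML3 against 6 in AML5. Of the 81 bins with no protein-coding TSS within 50 kb, the 5 with the largest difference were all in this gene, starting at 46474001, 46457001, 46473001, 46459001 and 46482001.

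The hairpins themselves, at the far end of the gene, lay outside the unmethylated stretch. Within 1 kb of the let-7a-3 hairpin OCI-AML3 stood at 73.2% and AML5 at 91.1%, and within 1 kb of the let-7b hairpin 72.3% and 94.6%. The mature products are printed here with the seed, bases 2 to 8, in capitals, together with miR-193a-3p, whose gene held a qualifying bin over the hairpin.
hsa-let-7a-5p: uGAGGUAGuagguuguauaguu
hsa-let-7b-5p: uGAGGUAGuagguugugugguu
hsa-miR-193a-3p: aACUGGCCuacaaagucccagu

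The first 2 share their seed and the third has another. Of 1010 microRNA annotations with a dense bin over the hairpin or within 1 kb, 6 (0.594%) had a qualifying bin there. For MIR193A, a microRNA gene often methylated in leukemia, the bin chr17:29887001-29888000 covered the hairpin (29887015 to 29887102, plus strand) and held 51 CpGs at 11.1% in OCI-AML3 and 94.3% in AML5. The bin over MIR92B was at 2.80% and 74.6% (95 CpGs), and that over hsa-mir-3195 at 8.66% and 71.4% (94 CpGs).

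At BAHCC1, which encodes a chromatin protein with a BAH domain, the 8 bins of chr17:79425001-79433000 formed an unbroken run of 378 CpGs at 4.14% in OCI-AML3 and 94.4% in AML5. Single bins of the run lay between 0.495% and 14.9% in OCI-AML3 and at 92.6% or more in AML5, lowest in the fourth bin in OCI-AML3 and rising toward both ends. It lay near alternative starts inside the gene, and 3 more bins qualified nearer the start of the gene, so that 11 of its 58 dense bins were in the set. At IRX5, an Iroquois homeodomain factor, 6 bins (chr16:54966001-54972000, 359 CpGs) averaged 0.863% in OCI-AML3 and 90.8% in AML5. The flank before the run was unmethylated in both lines, so in OCI-AML3 the unmethylated stretch reached further than in AML5. CIRBP, a cold-inducible RNA-binding protein (chr19:1271001-1275000), and AKAP8, a nuclear anchor for protein kinase A (chr19:15483001-15487000), had runs of 4 bins, at 3.62% and 92.0% and at 4.60% and 91.6%. HNRNPF, a splicing regulator, had 3 bins at 0.232% and 94.5%, and PTBP1, another splicing regulator, 3 bins at 0.959% and 92.1%. GRAMD4 and LAT, an adaptor of T-cell receptor signalling, also had 3 bins each, at 6.42% and 83.6% and at 3.80% and 88.3%.

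Among single bins within 2 kb of a protein-coding TSS and not on chromosome 8, 8 of the 15 with the largest difference held an alternative start of a gene. HOXA3, a homeodomain factor of the anterior HOXA genes, came first: its bin chr7:27179001-27180000 (60 CpGs, around an alternative start and the antisense HOXA-AS3) was at 0.172% in OCI-AML3 and 95.8% in AML5. The highest CpG of OCI-AML3 there was 3.12% and the lowest of AML5 84.6%. HNRNPF followed with 2 bins, of which chr10:43892001-43893000 (94 CpGs) was at 0.115% and 95.6%. The IRX5 bin chr16:54967001-54968000 (90 CpGs) was at 0.258% and 95.6%, and the BAHCC1 bin chr17:79428001-79429000 at 0.495% and 95.6%. In each of these 5 bins no CpG of OCI-AML3 overlapped the range of AML5.

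CDKN2B, a cyclin-dependent kinase inhibitor often methylated in myeloid leukemia, was the only one of the 15 to hold the most upstream TSS of its gene. Its bin chr9:22009001-22010000 (37 CpGs, also overlapping CDKN2B-AS1) was at 1.05% in OCI-AML3 and 96.1% in AML5, with 13 of 2541 and 395 of 412 calls methylated. AML5 was read there at 11.1 calls per CpG. HOXB3, from the HOXB genes, was at 1.01% and 95.7% at chr17:46651001-46652000. MGRN1, a ubiquitin ligase, was at 0.688% and 94.8%. EMILIN2, an extracellular matrix glycoprotein, had the largest number of CpGs among the 15 (106) at 0.174% and 94.2%. CES1, a liver carboxylesterase, was at 0.382% and 94.2%. A bin in an intron of HOXA10, a posterior HOXA factor, was at 0.747% and 94.4%. KIAA0930 was at 1.73% and 94.9%, SFMBT2, a polycomb protein, at 1.26% and 94.4%, and TNRC6C, which acts in microRNA silencing, at 1.199% and 94.4%.

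By gene, 256 of 16571 protein-coding genes with a dense bin at a TSS had a qualifying bin there (1.54%), 47 had a bin unmethylated only in AML5, and none had both. Gene lists were read against that 1.54%. No list was tested, since the bins were chosen by these levels and the lists with earlier results of these data known.

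Among HOX genes, transcription factors of the body axis and of blood progenitors, 4 of 39 had a qualifying bin (10.3%): HOXA3, HOXB3, HOXA10 and HOXA9. The bin named for HOXA9 lay in an intron of HOXA10, 202 bp from one annotated start of HOXA9, which need not be its main promoter. It was at 0.453% in OCI-AML3 and 91.1% in AML5. From HOXB1 to HOXB13 the mean over 4543 CpGs was 41.2% and 58.2%, and 5 of 80 dense bins qualified, all of them nearest to HOXB3. Other homeobox and T-box factors had 3 of 156 genes, among them IRX5 and MEIS1. MEIS1, a cofactor of HOX proteins, had a pair of adjoining bins (chr2:66664001-66666000). The first was at 3.61% and 76.0%, and the second at 4.32% and 91.5%, where OCI-AML3 had 21.95 calls per CpG and AML5 43.9.

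The list of myeloid granule, surface and regulator genes had 4 of 35 genes with a qualifying bin (11.4%), MEIS1 counted again among them, and 2 with a bin unmethylated only in AML5. The others were AZU1, ELANE and IRF8, of which AZU1 and ELANE are granule genes. In the opposite direction, bins at a TSS of GFI1 and of CEBPE were unmethylated only in AML5. GFI1 was at 85.7% in OCI-AML3 and 8.06% in AML5, and CEBPE at 83.4% and 13.1%. Azurocidin (AZU1) and neutrophil elastase (ELANE), antimicrobial proteins of the azurophil granule, lie in the same region of chromosome 19 but are not adjacent genes. From the start of AZU1 to the end of ELANE 7 of 31 dense bins qualified, and 1158 CpGs averaged 41.6% and 81.4%. The 4 adjoining AZU1 bins (chr19:824001-828000) averaged 5.06% in OCI-AML3 and 81.4% in AML5, with single bins of AML5 down to 71.9%. The 3 ELANE bins (chr19:851001-854000) averaged 2.34% and 84.7%. IRF8, a transcription factor of monocyte and dendritic cell development, was at 0.216% and 91.7% in a bin around an alternative start. Its left neighbour was at 0.118% and 63.0%. These CpG levels do not tell whether the genes were transcribed, since no expression was measured in the files. From expression microarrays the study listed ELANE, IRF8 and MEIS1 as higher in OCI-AML3 than in AML5. AZU1 was not on its list.

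Inhibitors of cyclin-dependent kinases had 2 of 8 genes, CDKN2B and CDKN1B, the second at 9.28% in OCI-AML3 and 77.9% in AML5 next to a window at 0% and 28.1%. A list compiled as tumour suppressors with promoter methylation in cancer had 4 of 45 (8.89%), counting CDKN2B again. The study had already reported TRIP6, CAVIN3 (there PRKCDBP) and CDKN2B from these lines. Its genes with lower promoter methylation and higher expression in OCI-AML3 also included MEIS1, IRF8, ELANE, IRX5 and CDKN1B. HENMT1, LDHC, ALDH2, ICAM3, MX2, GRAMD4 and KIAA0930 were among them too. The tumour suppressor list was chosen with such results known, so its share is not independent of them. CAVIN3, a coat protein of caveolae, had a pair of bins, of which chr11:6341001-6342000 held its most upstream TSS and 74 CpGs at 0.217% and 88.0%. TRIP6, a LIM-domain protein of focal adhesions, was at 0.611% and 92.7%, and RUNX3, a factor of the RUNX family, at 1.90% and 79.2%. In CAVIN3 and TRIP6 at least 1 CpG of AML5 had no methylated call, and the CpGs of AML5 had SDs of 19.96 and 15.2 points. Caveolar genes had 1 of 8, CAVIN3 alone.

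Germline and piRNA genes, commonly silenced by methylation outside the germ line, had 2 of 47. LDHC, the testis lactate dehydrogenase, was at 10.6% in OCI-AML3 and 93.9% in AML5, and HENMT1, which methylates piRNA ends, at 9.002% and 91.4%. In both the highest CpG of OCI-AML3 was above 84%. Glutathione and aldehyde enzymes had 2 of 33, GSTM2 at 14.2% and 90.1% and ALDH2, a mitochondrial aldehyde dehydrogenase, at 12.3% and 75.6%, each with CpGs of OCI-AML3 above 94%. Innate sensing genes had 1 of 30, the interferon-induced GTPase MX2 (8.92% and 79.3%), and adhesion genes 1 of 44, the leukocyte adhesion molecule ICAM3 (2.79% and 91.4%). Cadherins and protocadherins had 1 of 88, PCDHGC3 at 5.24% and 87.4%.

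Channel genes had 6 of 111 (5.41%), led by the potassium channel gene KCNN2 at 0.687% and 89.8%. KCNE3, KCNS1, KCNJ5 and KCNIP4 were between 5.12% and 9.27% in OCI-AML3 and between 73.2% and 89.6% in AML5. Zinc finger (ZNF) genes had 3 of 486 (0.617%), ZNF354A, ZNF217 and ZNF695, and here the opposite direction was more frequent, with 6 genes. No gene of 20 Wnt antagonists or of 39 apoptosis genes had a qualifying bin.

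A pair of lists was added after the values were seen and is a description only. Ribosomal protein genes had 6 of 72 (8.33%), among them RPL35A at 3.39% in OCI-AML3 and 92.8% in AML5, RPS2 at 8.73% and 90.1%, and RPS7 at 1.501% and 82.6%. RPL23A and RPS10 were at 4.91% and 83.3% and at 2.85% and 71.9%. The RPS7 bin lay in a coding exon, 565 bp from a TSS, beside a window at 0.060% and 1.10%. The RPS2 and RPL23A bins held no TSS and lay 257 and 318 bp from one, whereas the RPS10 bin held one. Genes that write, read or erase DNA methylation had 3 of 18. UHRF2, a reader of modified cytosine, was at 1.201% and 77.3% beside a window at 0.0856% and 0.0878%, and ZBTB4, which binds methylated DNA, at 0.914% and 71.8% beside a window at 0.0764% and 1.35%. TET3, a dioxygenase that oxidizes methylated cytosine, was at 11.3% and 86.8% around an alternative start.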

How the data were processed

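Genomic DNA of 2 cell lines was bisulfite-treated and sequenced with paired-end reads (1 library per line). Per the submitters' processing notes and the study's methods, the authors aligned reads to hg19 with Bismark and Bowtie 0.12.8. The authors deposited, for every CpG, the count of calls read as methylated and the count read as unmethylated, added over both strands and not normalized. Whether duplicate reads were removed is not given in the sources used here. The methylated column was identified from mitochondrial DNA (0.168% and 0.101% methylated). Each table listed 28217448 CpGs, with 902802339 calls in OCI-AML3 and 894828667 in AML5 and medians of 27 and 30 calls per nuclear CpG, so the methylated share of a single CpG is known only coarsely.

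Levels were averaged in non-overlapping bins over CpGs with more than 5 reads in both lines. TSSs came from GENCODE 44 lifted to GRCh37, the build of the files, and microRNA sequences from RefSeq (GRCh38.p14 table), where all 3 microRNA genes looked up were matched. Adjoining bins were 1 kb windows with at least 3 CpGs read. Shares carry Wilson 95% intervals. Intervals over bins, also that of the median depth ratio, treat bins as independent and can be too narrow. No test was run. The bin calling was tested on simulated calls. The repeat-masked share of the bins was not analysed here. The bins and gene lists were chosen with earlier results of these data known; the homeobox list was corrected, and the ribosomal protein and methylation machinery lists and 1 motif were added, after values were seen. Genes were named by rule, within 2 kb of a protein-coding TSS and not on chromosome 8. Named were the 15 bins with the largest difference, the 10 longest runs and up to 5 genes per list. The rule then added the 5 most different bins beyond 50 kb of such a TSS and 3 bins on each side of each limit. Some genes and sequences the rule selects are not reported here. Alternatives covered reads, averaging, CpG number, bin size and offset, limits, depth and TSS definition. Python 3.11.15, numpy 2.4.6, scipy 1.17.1, pandas 2.3.3 and samtools were used.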

Additional observations from a re-analysis of the deposited data

How the results depend on the processing

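The excess of bins unmethylated only in OCI-AML3 over those unmethylated only in AML5 was present under all 9 alternatives for calling bins. With stricter limits (10% and 80%) the counts were 296 and 30, with looser limits (20% and 60%) 1195 and 181, and in 500 bp bins with at least 10 CpGs 2530 and 277. With at least 10 CpGs per bin 1395 bins were unmethylated only in OCI-AML3, and with at least 30 CpGs 344. Pooling calls gave 712 bins, 564 of them shared with the 618. The share near a TSS was 30.8% with at least 10 CpGs, 55.8% with at least 30 and 35.7% in 500 bp bins. The matching shares over all bins were not computed for these settings. Of the 618 bins, 59.2% were near a TSS with TSSs of all annotated genes and 22.8% with the most upstream TSS only. It was 24.1% with the TSS inside the bin and 55.8% within 2 kb. The same definitions, in that order, gave 32.0%, 12.3%, 13.0% and 30.5% of all dense bins. The median depth ratio was 1.03 with at least 10 CpGs, 1.34 with at least 30 and 1.11 in 500 bp bins. The share adjoining sequence unmethylated in both lines was 13.0% with at least 10 CpGs, 12.5% with stricter limits, 21.3% with looser limits and 11.2% in 500 bp bins. Requiring 10 reads, shifting bins by 500 bp and limiting depth left these 5 values within 1.5 times (counts) or inside the 95% interval (shares and depth ratio). The causes of the shifts were not tested. No paired analysis was possible because each line has 1 library. One library per line limits every value to these 2 cultures.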
